A study of Bos taurus with 31 samples.

Results

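Bile acid synthesis and transport in the liver was described through 10 gene symbols: the enzymes CYP7A1, CYP8B1, CYP27A1 and CYP7B1, the conjugation genes SLC27A5 and BAAT, the transporters ABCB11 and SLC10A1, and the nuclear receptors NR1H4 and NR0B2. The genes were selected by symbol as members of the pathway, with earlier results of these data known, and 9 of the 10 were matched among the 24616 genes of the deposited table of raw read counts. All 9 had at least 20 reads summed over the cows, as had 15916 genes in all. BAAT, the enzyme that joins bile acids to glycine or taurine, was not matched and is not analysed here.

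The data came from liver biopsies of 31 lactating German Holstein cows, taken in week 16 of a feeding trial and sequenced as 1 library per cow. The cows had been fed for 16 weeks a total mixed ration with a high concentrate feed proportion (HC, 60% of dry matter) or a low one (LC, 30%). In the glyphosate groups (GLY) the ration held peas, wheat and straw with residues of a glyphosate formulation that had been sprayed before harvest, while the control groups (CON) received a ration without that treatment, which still held low background residues. The 4 groups were CONHC (8 cows), CONLC (8 cows), GLYHC (8 cows) and GLYLC (7 cows), and the questions were whether the concentrate proportion, the glyphosate residues or their combination went with different hepatic transcript levels.

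Hepatocytes make bile acids from cholesterol. In the classic pathway CYP7A1 adds the first hydroxyl group and CYP8B1 sets the share of cholic acid, whereas in the alternative pathway CYP27A1 and CYP7B1 oxidize the side chain and the ring. SLC27A5 (the bile acyl-CoA synthetase) activates bile acids for conjugation, ABCB11 (the bile salt export pump, BSEP) secretes them into the canaliculus and SLC10A1 (NTCP) takes them up again from portal blood. NR1H4 encodes FXR, the nuclear receptor that bile acids activate, and NR0B2 encodes SHP, its target, which represses CYP7A1 and CYP8B1 in the known feedback loop.

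Gene-assigned reads numbered 11675775 in the shallowest library and 36675542 in the deepest, and group medians lay between 15639368 in CONHC and 22532846 in CONLC. The 8 hepatocyte markers, such as ALB and TTR, were abundant in all cows. One library stood apart, that of GLYLC cow 912. Its summed hepatocyte marker level was 2197000 normalized counts against 2624000 to 4405000 in the other 30 cows, and its summed level of 7 intestinal epithelium markers was 8249 against 799.8 to 2182. Of these 7 genes, SI was at 0 reads in the other 30 cows and FABP2 at no more than 3.39 normalized counts, against 68.4 and 4283 in cow 912. MUC13 and VIL1 were at 521.3 and 611.8 there, against at most 1.831 and 40.9 in the others. The rest stood out less or not at all. LGALS4 was at 1417 against at most 767.2 and FABP6 at 6.08 against at most 5.96. CDH17, at 1341, lay below the highest other cow (1644). CONLC cow 103 had the highest summed level of stellate cell and fibroblast markers, 32200. Results are therefore also given without cow 912, or without both cows. In such bulk libraries, fewer cells of a type and less RNA per cell cannot be told apart.

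No member met the call rule in any comparison of the feeding groups. The rule, applied to all 15916 genes in the quasi-likelihood test of edgeR, asked for p under 0.05 before adjustment and under 0.1 after Benjamini-Hochberg adjustment. For concentrate, 0 of 9 members were called in CONHC versus CONLC, where 0% of all genes were called, 0 of 9 in GLYHC versus GLYLC (0.201% of all genes) and 0 of 9 in HC versus LC over all cows with treatment as covariate (1.45%). For glyphosate, the count was 0 of 9 in GLYHC versus CONHC (0%), in GLYLC versus CONLC (0.0628%) and in GLY versus CON over all cows with concentrate as covariate (0%), and it was 0 of 9 for the interaction of both factors (0%). At an unadjusted p under 0.05 alone there were 2 members in HC versus LC (13.7% of all genes), 1 in GLYHC versus GLYLC (12.5%) and 0 in the other comparisons (5.96% in CONHC versus CONLC, 2.92% in GLYHC versus CONHC, 5.65% in GLYLC versus CONLC, 3.92% in GLY versus CON and 4.21% for the interaction). DESeq2 also called 0 of 9 in each comparison. The shares of all genes it called were 0.17% in CONHC versus CONLC, 0.898% in GLYHC versus GLYLC, 0% in GLYHC versus CONHC, 0.0251% in GLYLC versus CONLC, 0.00628% for the interaction, 2.73% in HC versus LC and 0.00628% in GLY versus CON. No member had groups that did not overlap, which held for 0.0188%, 0.0942%, 0.00628% and 0.00628% of all genes in the 4 comparisons of single groups in the order above. These comparisons share cows, so they are not independent of each other.

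**Figure D1:**
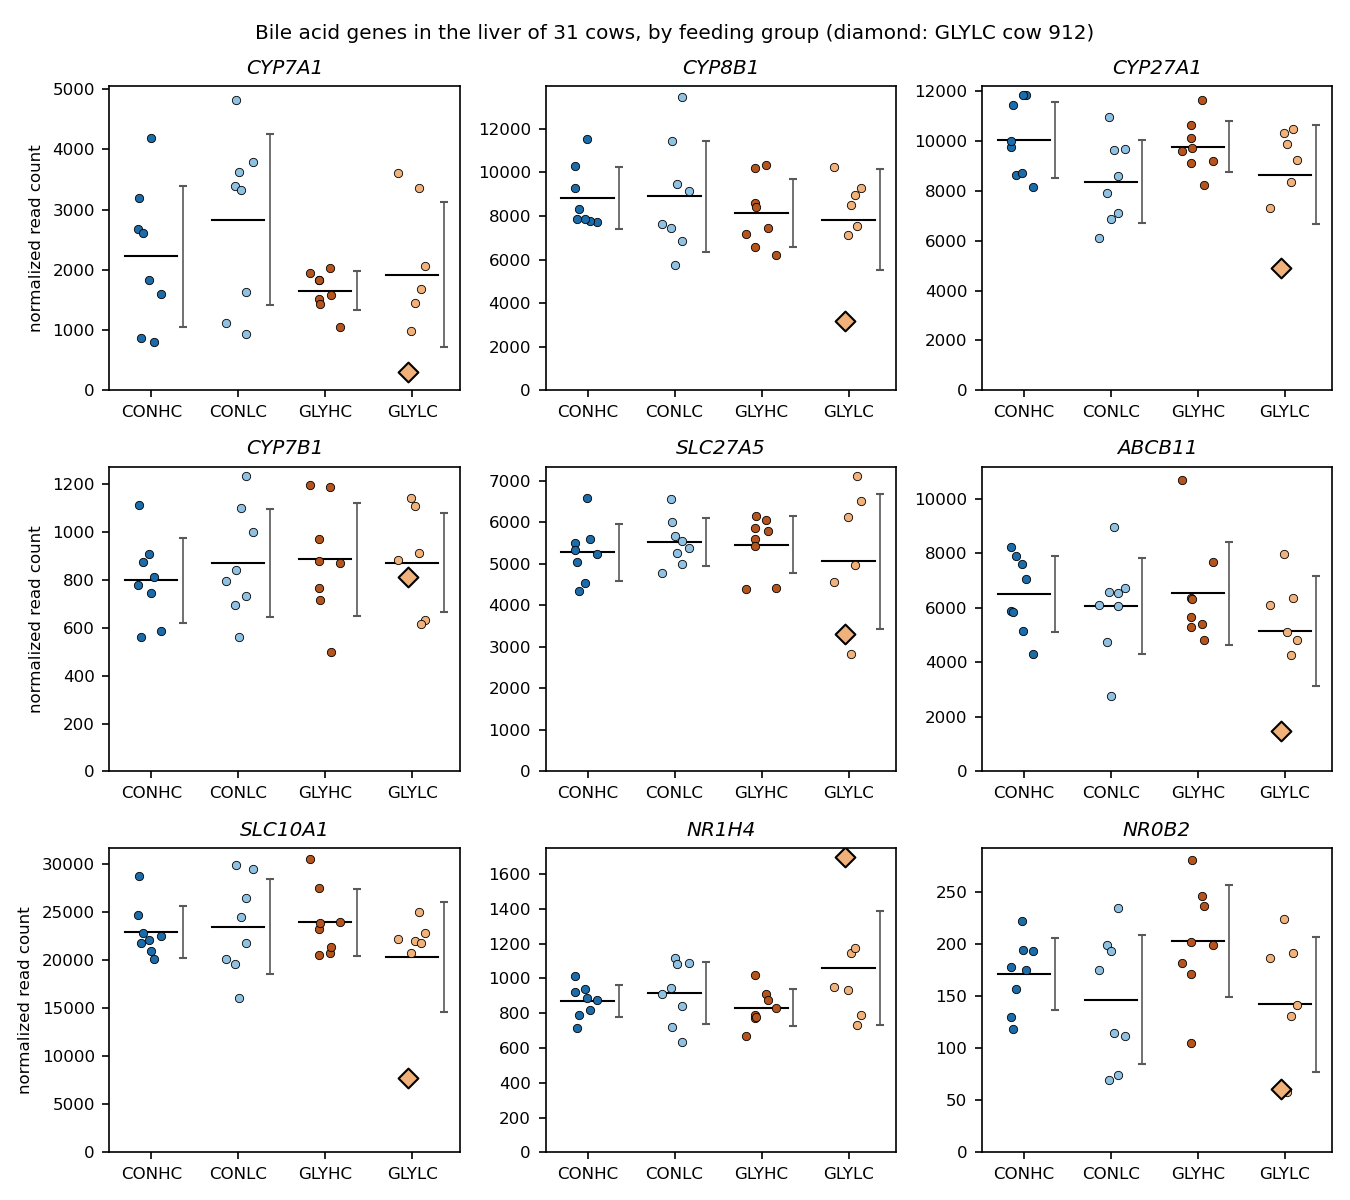
Normalized read counts of the 9 genes (y axes, linear from 0) in each cow by feeding group (x axes); horizontal lines are group means, vertical bars 1 SD, and the diamond is GLYLC cow 912. The groups overlap for each gene, and cow 912 is lowest of 31 for CYP7A1, CYP8B1, CYP27A1, ABCB11 and SLC10A1 and highest for NR1H4.

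CYP7A1, which catalyzes the rate-limiting step of the classic pathway, varied more between cows of a group than it differed between groups. Normalized counts, which are reads scaled to a common library size, had the lowest, median and highest value 809, 2227 and 4188 in CONHC and 934, 3364 and 4828 in CONLC. In the glyphosate groups these values were 1056, 1704 and 2040 in GLYHC and 304, 1687 and 3615 in GLYLC. The 4 groups overlapped widely, the 8 GLYHC cows lay closest together and the lowest value was that of cow 912. Group means were 2224 ± 1167 (CONHC, SD, n = 8), 2834 ± 1421 (CONLC, n = 8), 1654 ± 324 (GLYHC, n = 8) and 1923 ± 1206 (GLYLC, n = 7), so that the coefficient of variation was 52.4%, 50.2%, 19.6% and 62.7%. The spread of log2 CPM within groups (SD 0.87) was larger than that of 97.2% of the 10676 genes with a mean of at least 2 CPM, whose median SD was 0.25, and without cow 912 the SD was 0.74. In GLY versus CON cows, the level of CYP7A1 was 0.712-fold (95% interval 0.488 to 1.04), a log2 fold change of -0.49 (SE 0.27, unadjusted p = 0.0760, adjusted p = 0.9999 in edgeR). Without cow 912 that log2 fold change was -0.40 (unadjusted p = 0.105). The HC versus LC level was 0.821-fold (0.564 to 1.195, adjusted p = 0.698 in edgeR). An interval this wide covers both a fall to about 0.564-fold and a small rise, so differences of that size were not resolved for this gene.

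CYP8B1, the sterol 12-alpha-hydroxylase, had the lowest, median and highest normalized count 7710, 8106 and 11520 in CONHC and 5761, 8372 and 13450 in CONLC. The corresponding values were 6223, 7936 and 10360 in GLYHC and 3196, 8492 and 10260 in GLYLC. Group medians lay close together and the ranges overlapped, with cow 912 again at the bottom. HC and LC cows differed by a log2 fold change of 0.020 (SE 0.12), a ratio of 1.01 with a 95% interval of 0.851 to 1.21. For GLY versus CON the log2 fold change was -0.15 (SE 0.12, adjusted p = 0.9999 in edgeR) and the ratio 0.901 (0.756 to 1.07).

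CYP27A1, the mitochondrial sterol 27-hydroxylase of the alternative pathway, was the synthesis gene with the smallest p for concentrate. Its lowest, median and highest normalized count was 8134, 9871 and 11850 in CONHC against 6107, 8263 and 10970 in CONLC. With glyphosate residues the values were 8225, 9646 and 11650 in GLYHC against 4912, 9236 and 10490 in GLYLC. The lowest cows belonged to the LC groups, and no group was separated from another. HC versus LC gave a log2 fold change of 0.22 (SE 0.09, unadjusted p = 0.0223, adjusted p = 0.266 in edgeR), a ratio of 1.17 with a 95% interval of 1.02 to 1.33. Without cow 912 the log2 fold change was 0.18 (unadjusted p = 0.0388, adjusted p = 0.389), and without cows 912 and 103 it was 0.15 (unadjusted p = 0.0672). Within CON cows alone the log2 fold change was 0.26 (unadjusted p = 0.0514) and within GLY cows 0.18 (unadjusted p = 0.198). The interaction, which tests the difference between them, was -0.09 (SE 0.19, adjusted p = 0.9985 in edgeR).

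CYP7B1, the oxysterol 7-alpha-hydroxylase of the same pathway, ranged from 498 to 1234 normalized counts over the 31 cows, with group means of 797 ± 178 (CONHC, SD, n = 8), 870 ± 224 (CONLC, n = 8), 885 ± 235 (GLYHC, n = 8) and 872 ± 208 (GLYLC, n = 7). Its ratio was 0.964 (95% interval 0.809 to 1.15) for HC versus LC and 1.06 (0.888 to 1.26) for GLY versus CON. SLC27A5 ranged from 2830 to 7111 normalized counts. Its group means were 5269 ± 688 (CONHC), 5522 ± 571 (CONLC), 5459 ± 694 (GLYHC) and 5057 ± 1622 (GLYLC), and the widest spread was that of the 7 GLYLC cows. For SLC27A5 the ratio was 1.01 (0.883 to 1.16) in HC versus LC and 0.976 (0.851 to 1.12) in GLY versus CON.

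ABCB11, the canalicular export pump, had the lowest, median and highest normalized count 4320, 6473 and 8212 in CONHC and 2772, 6316 and 8960 in CONLC. In GLYHC the values were 4806, 5983 and 10700, and in GLYLC they were 1496, 5099 and 7968. The GLYLC group reached lowest, through cow 912, and its other cows lay within the range of the other groups. The log2 fold change was 0.34 (SE 0.24, unadjusted p = 0.161, adjusted p = 0.586 in edgeR) in GLYHC versus GLYLC, and 0.18 without cow 912. SLC10A1, the basolateral uptake carrier, had a lowest, median and highest normalized count of 20060, 22250 and 28740 in CONHC, 16010, 23120 and 29870 in CONLC, 20470, 23520 and 30490 in GLYHC and 7695, 21940 and 25000 in GLYLC. Cow 912 lay far below the other 30 cows, whose lowest value was 16010. Between GLYHC and GLYLC the log2 fold change of SLC10A1 was 0.24 (SE 0.16, adjusted p = 0.573 in edgeR), and it was 0.09 without cow 912. Cow 912 also had the highest intestinal marker sum. The highest sum of the other 30 cows was that of GLYHC cow 131 (2182), which had the highest value of all cows for both genes. The part of the intestinal marker sum in these values was not tested.

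NR1H4 (FXR) was the receptor with the smallest p for concentrate, and that value followed cow 912. The lowest, median and highest normalized count was 715, 881 and 1013 in CONHC and 635, 928 and 1118 in CONLC. With glyphosate residues it was 668, 812 and 1022 in GLYHC and 733, 952 and 1697 in GLYLC. Cow 912 held the highest value of all cows, and the other GLYLC cows overlapped with GLYHC cows. GLYHC versus GLYLC gave a log2 fold change of -0.35 (SE 0.14, unadjusted p = 0.0168, adjusted p = 0.286 in edgeR), which was -0.20 (unadjusted p = 0.109) without that cow. HC versus LC gave -0.21 (SE 0.10, unadjusted p = 0.0401, adjusted p = 0.332 in edgeR), and -0.13 (unadjusted p = 0.113) without that cow. Cow 912 also had the highest intestinal marker sum. GLYHC cow 131, with the highest sum of the other cows, had the lowest NR1H4 value of its group. The part of the intestinal marker sum in the NR1H4 values was not tested.

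NR0B2 (SHP) had the lowest, median and highest normalized count 119, 176.5 and 223 in CONHC and 69.65, 145 and 235 in CONLC. For the glyphosate groups these values were 105, 201 and 281 in GLYHC and 58.4, 142 and 225 in GLYLC. The low values of both LC groups reached below those of the HC groups, and the upper parts of the ranges overlapped. Between 56 and 330 reads per cow lay behind these values, fewer than for the other members, which adds counting error to the spread between cows. The HC versus LC level was 1.28-fold (95% interval 0.987 to 1.67), a log2 fold change of 0.36 (SE 0.19, unadjusted p = 0.0623, adjusted p = 0.394 in edgeR), and 0.29 without cow 912 (unadjusted p = 0.108). Within GLY cows it was 0.51 (SE 0.27, unadjusted p = 0.0657, adjusted p = 0.437 in edgeR). In GLY versus CON cows the log2 fold change of NR0B2 was 0.10 (SE 0.19, adjusted p = 0.9999 in edgeR).

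**Figure D2:**
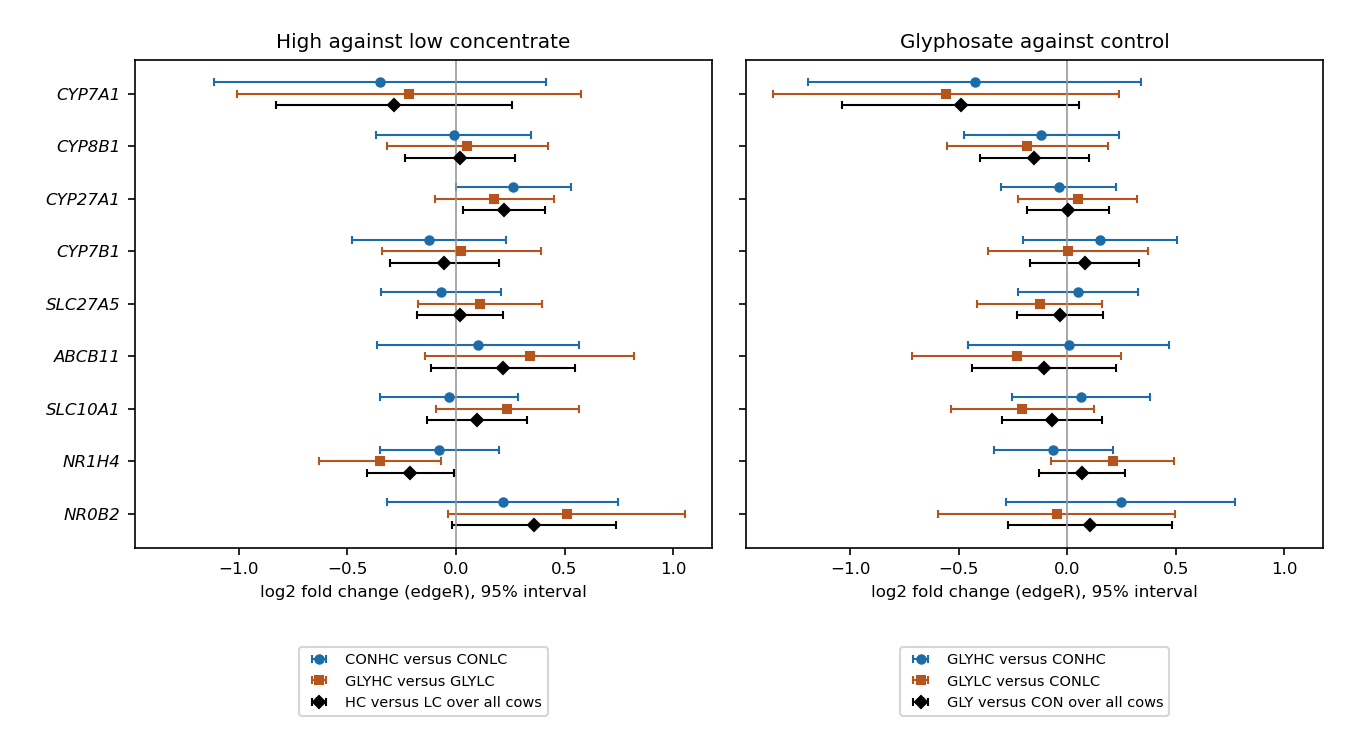
Log2 fold changes (x axes) with 95% intervals for the 9 genes (y axis) from edgeR, for high against low concentrate (left) and glyphosate against control (right), in single groups (circles, squares) and over all cows (diamonds). Intervals exclude 0 for CYP27A1 and NR1H4 in HC versus LC and for NR1H4 in GLYHC versus GLYLC, none of which was called, and those of CYP7A1 are the widest.

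As a group, the members had median log2 fold changes between -0.13 and 0.15 over the 7 comparisons, while those of all genes lay between -0.015 and 0.0090. The highest was that of the interaction, with 7 members above 0 and 2 below and a median of 0.15 against 0.0090 for all genes. For the interaction the split was 5 and 4 with a median of 0.073 without cow 912, and 6 and 3 with 0.089 without cows 912 and 103. In HC versus LC, 6 members were higher and 3 lower with a median log2 fold change of 0.020, against -0.015 for all genes. Without cow 912 the split was 4 and 5 with a median of -0.024, and without both cows it was 4 and 5 with -0.035. In GLYLC versus CONLC, 3 members were higher and 6 lower with a median of -0.13, against -0.0024 for all genes, and this median was -0.040 without cow 912 and -0.079 without both cows. GLYHC versus GLYLC had 7 higher and 2 lower with a median of 0.11 (all genes -0.0079), 0.026 without cow 912 and 0.036 without both cows. In CONHC versus CONLC 3 were higher and 6 lower with a median of -0.032 (all genes -0.015), and in GLYHC versus CONHC 5 were higher and 4 lower with a median of 0.0061 (all genes 0.0053). In GLY versus CON over all cows, 4 members were higher and 5 lower with a median of -0.035 (all genes 0.0037), and without cow 912 5 were higher and 4 lower with a median of 0.0057. Without both cows 3 were higher and 6 lower with a median of -0.0099, so that this small median changed sign without cow 912 and changed back when cow 103 was left out too.

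In cow 912 the members departed from the other 30 cows by very different factors. Relative to the median of those cows, CYP7A1 was at 0.165, ABCB11 at 0.245, NR0B2 at 0.338, SLC10A1 at 0.345, CYP8B1 at 0.382, CYP27A1 at 0.511 and SLC27A5 at 0.604. The summed hepatocyte markers of the same cow were at 0.633 of that median, the 6 pericentral hepatocyte markers at 0.410 and the 6 periportal ones at 0.502. Of these 7 members, SLC27A5 was closest to the factor of the hepatocyte marker sum, and the others lay further below it. Single hepatocyte markers differed too. ALB, TF, TTR, SERPINA1 and AHSG had their lowest value of all cows in cow 912, while APOA1, APOB and FGB did not. ALB was at 892800 normalized counts there against a median of 2225000 over all cows, and TTR at 50290 against 109800. The sum therefore does not stand for each hepatocyte gene. CYP7B1 was at 0.947, in the middle of the cows, and NR1H4 was at 1.92. Of the 9 members, 5 had their lowest value of all 31 cows in this animal.

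Covariation between cows was measured on log2 CPM with group means removed, for all 36 pairs of members. With all 31 cows, 10 pairs had a Benjamini-Hochberg adjusted permutation p of Pearson's r under 0.1, of which 9 were positive and 1 negative. With Spearman's rho 8 pairs passed, 6 of them by both measures. Without cow 912 there were 6 pairs, and 3 of these were among the 10. Without cows 912 and 103 there were 5 pairs, and 2 pairs, ABCB11 with SLC10A1 and with CYP7B1, passed with all cows and in both reduced sets by Pearson's r. The values of 1 pair come from the same libraries and share their normalization.

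The pair that passed with the highest r was that of the export pump and the uptake carrier, ABCB11 and SLC10A1. Pearson's r was 0.792 (permutation p = 0.00041, adjusted p = 0.0148) and Spearman's rho 0.592 (permutation p = 0.00068, adjusted p = 0.0148). Without the 2 cows farthest from the median of ABCB11, r was 0.494. Within groups r was 0.35 in CONHC, 0.77 in CONLC, 0.82 in GLYHC and 0.87 in GLYLC. Without cow 912 the pooled r was 0.582 (permutation p = 0.00308, adjusted p = 0.0487), and without both cows it was 0.601 (adjusted p = 0.0706), where rho no longer passed (0.495, permutation p = 0.0107, adjusted p = 0.114). Without cow 912, r in the remaining 6 GLYLC cows was -0.88, so the positive relation did not hold within that group.

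ABCB11 also covaried with CYP7B1. Here r was 0.500 (permutation p = 0.00464, adjusted p = 0.0334) and rho 0.561 (permutation p = 0.00165, adjusted p = 0.0148), with 0.397 for r without the 2 cows farthest from the median of CYP7B1. Leaving out cow 912 gave an r of 0.635 (permutation p = 0.00043, adjusted p = 0.0155), whereas leaving out CONLC cow 166 gave 0.421 (permutation p = 0.0252, adjusted p = 0.11), where the pair no longer passed. Within groups r was 0.82 in CONHC, 0.82 in CONLC, 0.56 in GLYHC and 0.16 in GLYLC. CYP8B1 and SLC10A1 had an r of 0.769 (permutation p = 0.00124, adjusted p = 0.0223) and a rho of 0.606 (permutation p = 0.00162, adjusted p = 0.0148). Without cow 912 their r was 0.531 (permutation p = 0.0153, adjusted p = 0.0919). Without cows 912 and 103 it was 0.520 (permutation p = 0.0241, adjusted p = 0.119) and rho 0.474 (adjusted p = 0.125), so that the pair no longer passed. With all cows, the values within CONHC (0.24) and GLYHC (0.03) were low, while those within CONLC (0.84) and GLYLC (0.96) were high. The GLYLC value was 0.52 without cow 912.

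CYP7A1 and CYP8B1, the classic pathway enzymes, passed with all cows (r = 0.624, permutation p = 0.00281, adjusted p = 0.0253; rho = 0.517, permutation p = 0.00445, adjusted p = 0.0320). Their r was 0.396 without the 2 cows farthest from the median of CYP7A1 and 0.411 without cow 912 (permutation p = 0.0409, adjusted p = 0.123), where r no longer passed. By rank the pair still passed without cow 912 (rho = 0.463, permutation p = 0.0157, adjusted p = 0.0941), but not without both cows (rho = 0.465, permutation p = 0.0139, adjusted p = 0.114). Within groups r was 0.78 in CONHC, 0.14 in CONLC, 0.49 in GLYHC and 0.94 in GLYLC. For 6 further pairs Pearson's r passed with all cows and not without cow 912. CYP8B1 with CYP27A1 went from an r of 0.656 to 0.434, while its rho without that cow still passed (0.459, permutation p = 0.0211, adjusted p = 0.095). Without both cows rho did not pass (0.388, permutation p = 0.0538, adjusted p = 0.167). Within groups r of this pair was 0.35 in CONHC, 0.70 in CONLC and 0.74 in GLYHC, but -0.89 in GLYLC without cow 912. CYP7A1 with SLC10A1 went from 0.586 to 0.290, CYP27A1 with SLC10A1 from 0.632 to 0.327 and CYP27A1 with ABCB11 from 0.560 to 0.273. ABCB11 with NR1H4, the negative pair, went from -0.547 to -0.287. SLC27A5 with NR0B2 moved less, from 0.537 to 0.453 (adjusted p = 0.123 by permutation), and its lowest r was 0.409 without GLYLC cow 102 (adjusted p = 0.145). CYP27A1 with ABCB11 also failed to pass without CONLC cow 166 (r = 0.537), and ABCB11 with NR1H4 without that cow (-0.509) or GLYHC cow 131 (-0.514).

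**Figure D3:**
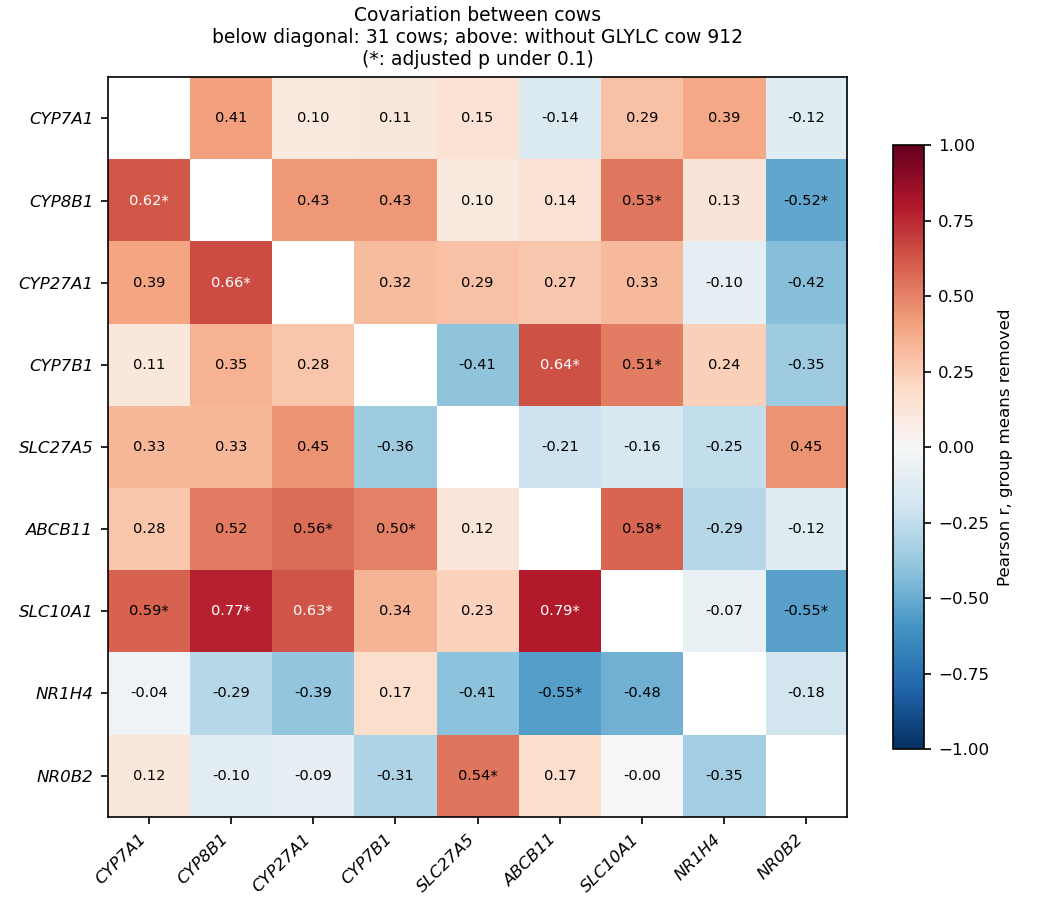
Pearson's r of log2 CPM with group means removed for the 36 pairs of genes, with all 31 cows below the diagonal and without GLYLC cow 912 above it; stars mark an adjusted permutation p under 0.1. ABCB11 with SLC10A1, ABCB11 with CYP7B1 and CYP8B1 with SLC10A1 are starred on both sides, and the negative values of NR0B2 with CYP8B1 and with SLC10A1 are starred above the diagonal only.

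The pairs of NR0B2 with the enzymes and the carrier concern a repressor and genes under bile acid control. With CYP7A1, r was 0.116 (permutation p = 0.618) over all cows and -0.12 without cow 912. With CYP8B1, r was -0.105 (permutation p = 0.678) and rho -0.263 (permutation p = 0.194) over all cows. The values for SLC10A1 over all cows were an r of -0.002 (permutation p = 0.994) and a rho of -0.323 (permutation p = 0.102). None of these pairs passed with all 31 cows. Without cow 912, CYP8B1 and NR0B2 had an r of -0.522 (permutation p = 0.00762, adjusted p = 0.0549) and a rho of -0.554 (permutation p = 0.00599, adjusted p = 0.0719), of which r passed without both cows (-0.513, adjusted p = 0.0941) and rho did not (-0.502, adjusted p = 0.114), and r was -0.413 without the 2 cows farthest from the median of CYP8B1. For SLC10A1 and NR0B2 in these 30 cows r was -0.546 (permutation p = 0.00406, adjusted p = 0.0487) and rho -0.637 (permutation p = 0.00091, adjusted p = 0.0164), with -0.454 when the 2 farthest cows were left out. The within-group values of CYP8B1 with NR0B2 in these cows were -0.05 in CONHC, -0.93 in CONLC, -0.25 in GLYHC and -0.21 in GLYLC, so the strong relation was that of the CONLC cows. For SLC10A1 with NR0B2 they were -0.12, -0.81, -0.55 and -0.25 in the same order. Without cow 912 both relations were negative in all 4 groups, weakest in CONHC, and the difference in strength was not tested. With cow 912 included, r within GLYLC was positive, 0.51 for CYP8B1 and 0.56 for SLC10A1.

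**Figure D4:**
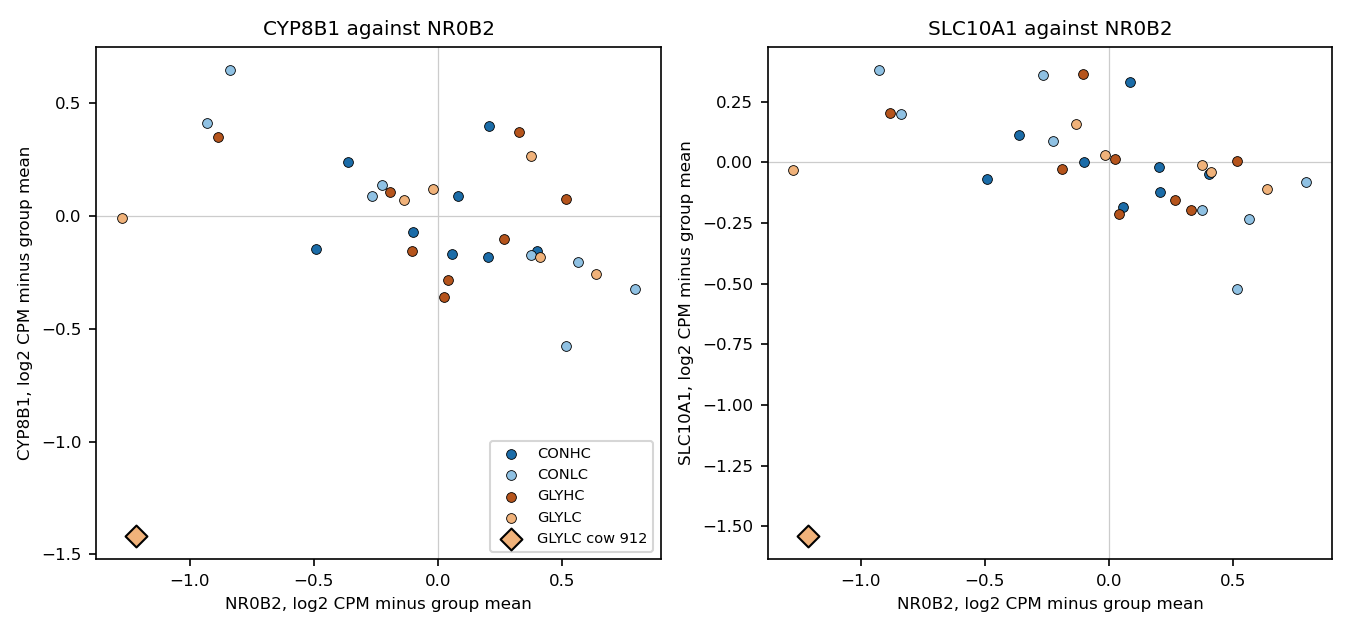
Log2 CPM of CYP8B1 (left) and SLC10A1 (right) against that of NR0B2, each minus its group mean computed without cow 912, with 1 point per cow coloured by feeding group. Among 30 cows the points fall from upper left to lower right (r = -0.522 and r = -0.546), while GLYLC cow 912 (diamond) lies low on both axes.

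The genes with the most similar pattern across the 31 cows were taken from the 10676 genes with a mean of at least 2 CPM, as those with the highest r. For CYP7A1 these were SIAH1 (r = 0.763), NR1I3 (r = 0.761), which encodes the nuclear receptor CAR, and MINK1 (r = 0.755). For CYP8B1 they were LGR5 (r = 0.876), a receptor of pericentral hepatocytes, the unnamed ENSBTAG00000000229 (r = 0.867) and CAT (r = 0.861), which encodes catalase. NR0B2 was most like ATP5IF1 (r = 0.806), CARD10 (r = 0.780) and ARVCF (r = 0.774), and ABCB11 most like ACAD10 (r = 0.897), CLMN (r = 0.872) and C23H6orf106 (r = 0.872). Without cow 912 these 12 values lay between 0.630 (CYP7A1 with SIAH1) and 0.831 (ABCB11 with ACAD10). As the highest of many, they are given without a test.

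Other genes of bile acid metabolism were taken from a list of 50, of which 46 were matched and 44 had enough reads. In edgeR, 0 of the 44 were called in any comparison (1.45% of all genes were called in HC versus LC). In HC versus LC 32 of the 44 were higher and 12 lower, with a median log2 fold change of 0.053 against -0.015 for all genes, and 8 were higher and 1 lower at an unadjusted p under 0.05 (5.88% of all genes were higher and 7.81% lower by that rule). Without cow 912 the split was 27 and 17 with a median of 0.033, and without both cows 26 and 18 with 0.028. The 8 were found among transporters (5 of 13), regulators (2 of 17) and synthesis enzymes (1 of 12). In GLY versus CON 1 was higher and 1 lower (2.48% and 1.45% of all genes).

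The smallest p values for concentrate belonged to SLC51B and SLC51A, the subunits of the basolateral bile acid exporter OSTalpha-OSTbeta, a known FXR target. SLC51B had the lowest, median and highest normalized count 758, 1251 and 2284 in CONHC, 580.5, 943 and 1477 in CONLC, 490 (cow 37), 1418 and 1894 in GLYHC and 272, 795 and 1519 in GLYLC. The medians of both HC groups lay above those of both LC groups, with overlapping ranges. HC versus LC was a log2 fold change of 0.59 (SE 0.19, unadjusted p = 0.00454, adjusted p = 0.149 in edgeR), and 0.51 without cow 912 (adjusted p = 0.202). SLC51A was low, with 1 to 103 reads per cow, and had the lowest, median and highest normalized count 1.83, 22.5 and 56.0 in CONHC, 1.64, 10.1 and 46.5 in CONLC, 2.75, 28.1 and 187 in GLYHC and 2.50, 12.8 and 36.5 in GLYLC. Its log2 fold change in HC versus LC was 1.39 (SE 0.48, unadjusted p = 0.00716, adjusted p = 0.176 in edgeR). Both genes were called by DESeq2 on all cows (adjusted p = 0.0794 for SLC51B and 0.0868 for SLC51A), where 2.73% of all genes were called. Both were also called in edgeR when CONLC cow 260, the highest of its group for either gene, was left out (adjusted p = 0.0914 for SLC51B and 0.0612 for SLC51A). SLC51B was called as well without GLYHC cow 37 (adjusted p = 0.0972) and without GLYLC cow 209 (adjusted p = 0.0953). Without GLYHC cow 152, which held the highest SLC51A value, the log2 fold change of SLC51A fell to 1.05, its lowest with 1 cow left out. Over all alternatives tried, the adjusted p of edgeR or DESeq2 lay between 0.0612 and 0.304 for SLC51A. For SLC51B it lay between 0.0794 and 0.243.

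**Figure D5:**
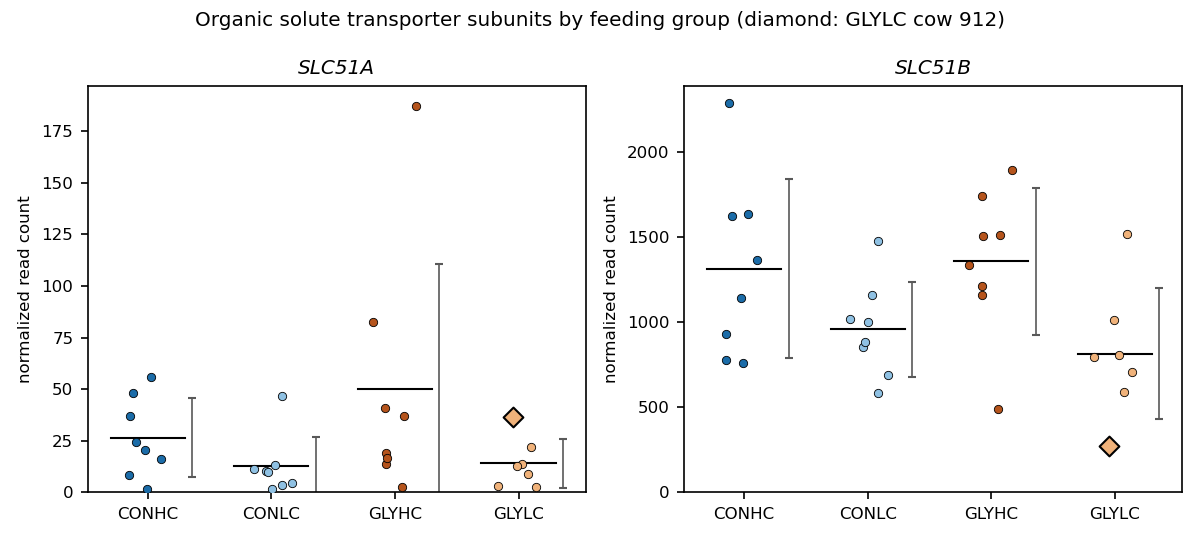
Normalized read counts of SLC51A (left) and SLC51B (right) in each cow by feeding group, with y axes linear from 0; horizontal lines are group means, bars 1 SD, and the diamond is GLYLC cow 912. HC groups reach higher than LC groups for both subunits and the ranges overlap.

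Further genes of the list with small p values in HC versus LC were canalicular or uptake transporters and parts of the receptor system. ABCB4, the phospholipid floppase of the canaliculus, had a log2 fold change of 0.27 (unadjusted p = 0.0176), ABCC2 (MRP2) one of 0.22 (unadjusted p = 0.0241) and SLCO2B1, an organic anion uptake carrier, one of 0.32 (unadjusted p = 0.0411). FGFR4, the hepatic receptor of intestinal FGF19, was at 0.29 (unadjusted p = 0.00949) and CYP39A1, an oxysterol 7-alpha-hydroxylase, at 0.30 (unadjusted p = 0.0104). SULT2A1, which sulfates bile acids, was the gene lower in HC cows, at -0.19 (unadjusted p = 0.0355). The adjusted p of these 6 genes lay between 0.197 (FGFR4) and 0.334 (SLCO2B1) in edgeR. Without GLYLC cow 102, CYP39A1 was called (log2 fold change 0.38, adjusted p = 0.0667 in edgeR). Leaving out cow 912 kept the direction of each of them. For ABCB4 (0.22), FGFR4 (0.24) and SLCO2B1 (0.23) it gave the lowest log2 fold change of any 1 cow left out. Markers of other cell types moved in the same comparison. CD68 and CD5L, of the 5 Kupffer cell and macrophage markers, were called as higher in HC cows (log2 fold change 0.61 and 0.41, adjusted p = 0.0948 and 0.0860 in edgeR), and neither was called without cow 912 (0.55 and 0.37, adjusted p = 0.137 and 0.116). The others were not called: VSIG4 was at 0.47 (unadjusted p = 0.0132 in edgeR), CD163 at 0.15 (0.259) and MARCO at -0.083 (0.773). The summed level of these 5 markers had medians of 8761 in CONHC and 9373 in GLYHC against 6734 in CONLC and 6872 in GLYLC, and ranged from 5040 to 13130 over all cows. Of the 7 intestinal epithelium markers, FABP2 and MUC13 were called as lower in HC cows (adjusted p = 0.0275 and 0.0307 in edgeR), and 5 were lower at an unadjusted p under 0.05. FABP2 and MUC13 were also called in GLYHC versus GLYLC, and FABP2 in GLYLC versus CONLC. Cow 912 held 4283 normalized counts of FABP2 and 521 of MUC13, against at most 3.39 and 1.83 in the other cows, and without it 4 of the 7 markers had enough reads and 0 were called. All 5 stellate cell and fibroblast markers were lower in HC cows with a median log2 fold change of -0.86, 4 of them at an unadjusted p under 0.05. Without cows 912 and 103 this median was -0.27 with 2 such genes, ACTA2 and COL1A1. Hepatocyte markers had a median log2 fold change of 0.12, with 6 of 8 higher and 2 of these, TF and APOB, at an unadjusted p under 0.05, and the median was 0.071 without cow 912. Without that cow they went both ways at an unadjusted p under 0.05 in edgeR. TF (0.19), APOB (0.25) and APOA1 (0.49) were higher, and SERPINA1 (-0.16) was lower. The part of these marker differences in the values of the bile acid genes was not tested.

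For glyphosate, the list's smallest p was that of ATP8B1, a phospholipid flippase of the canalicular membrane. Its log2 fold change in GLY versus CON was 0.31 (SE 0.10, unadjusted p = 0.00323, adjusted p = 0.808 in edgeR), and it was 0.20 without cow 912 (unadjusted p = 0.00224), in which its value of 708 normalized counts was the highest of all cows. KLB, the co-receptor of FGFR4, was at -0.31 (unadjusted p = 0.0433), or -0.24 without that cow. NR1I2, which encodes the xenobiotic receptor PXR, was at 0.17 (unadjusted p = 0.0530), or 0.21 (unadjusted p = 0.00710) without that cow, and FOXA2 at 0.20 (unadjusted p = 0.133). The adjusted p of ATP8B1, KLB, NR1I2 and FOXA2 was 0.808 or higher with all cows, and it was 0.9999 for each of them without cow 912.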

How the data were processed

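Total RNA from liver biopsies was made into stranded mRNA libraries. The authors used FastQC for quality checks, Trim Galore for trimming, HISAT2 2.1.0 for alignment to the bovine build UMD3.1 and HTSeq 0.8.0 for counting reads that mapped to 1 place, and they deposited the raw counts per gene. Whether HTSeq counted by strand is not given in the sources used here, so reads of a gene and of an overlapping antisense gene may not be separated. A second deposited table of normalized signal, made with DESeq2 1.20.0, was not used because the tests need raw counts. No column of another series was present.

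Here, edgeR 4.0.16 (R 4.3.3) was run on the counts with TMM factors, genes with at least 20 reads summed over 31 cows, a model of the 4 groups (or additive models with the other factor as covariate), quasi-likelihood F tests and Benjamini-Hochberg adjustment over all genes. Calls needed an unadjusted p under 0.05 together with an adjusted p under 0.1. DESeq2 1.42.0 was an alternative. Normalized counts are counts divided by the effective library size and multiplied by its mean; 95% intervals use the t quantile of the fit. They are not divided by transcript length, so levels were not compared between genes. Correlations used log2 CPM (prior count 2) minus group means and 100000 permutations within groups (Python 3.11.15, numpy 2.4.6), adjusted over 36 pairs. The edgeR steps were tested on simulated data. Over 105 pairs of cows of the same group, the mean chi-square per gene was 24.5 to 487, far above what counting noise alone would give. Groups and cow numbers came from the labels.

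Named genes were all members, called genes of the lists, the 8 and 4 genes of the pathway list with the smallest p in HC versus LC and GLY versus CON, and the 3 genes most correlated with CYP7A1, CYP8B1, NR0B2 and ABCB11. The members and lists were chosen with earlier results of these data known. Leaving out both cow 912 and cow 103, and counting the lists without these cows, was chosen after seeing the data. No sequences were used here.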

Additional observations from a re-analysis of the deposited data

Results flagged for a closer look

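For the 9 members and 12 named pathway genes, each of the 84 combinations of gene and feeding group was searched for a cow whose distance to the next one took an unusually large share of the group's range. In 8 of them such a cow was found. The threshold gives about 1 in 20 by chance for independent, normally distributed values. That rate need not hold here, because the same cows recur across genes and the 12 pathway genes were chosen by small p. Of the 8, 4 were GLYLC cow 912. It was low for SLC10A1 (7695 normalized counts, the next cow of its group 20740) and for SLCO2B1 (1171, the next 6056), and high for ATP8B1 (708.3, the next 352.3) and FOXA2 (464.3, the next 286.3). The same cow had the highest sum of intestinal epithelium markers, and the part of that in these values was not tested.

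The other 4 were CONLC cow 259 for ABCC2 (3783 normalized counts, the next 2932), GLYLC cow 102 for CYP39A1 (1353, the next 889.9), CONLC cow 260 for SLC51A (46.5, the next 13.1) and GLYHC cow 152 for SLC51A (186.9, the next 82.5). All 4 were high. Among the members, SLC10A1 was the one so singled out.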

How the results depend on the processing

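The count of members called was 0 in each of the 7 comparisons under every alternative tried: normalization by RLE or by upper quartiles, no count filter, a filterByExpr minimum of 10 reads, DESeq2 on all cows, edgeR's robust option, a stricter adjusted p of 0.05, each of the 31 cows left out in turn, both cows 912 and 103 left out, and, for the 4 comparisons of single groups, edgeR or DESeq2 on only the compared groups. Few genes of any kind were called. On only the compared groups, edgeR called 0% of all genes in each of the 4 comparisons. DESeq2 on them called 0.539% in CONHC versus CONLC, 0.57% in GLYHC versus GLYLC, 0.0334% in GLYHC versus CONHC and 0.0131% in GLYLC versus CONLC. In HC versus LC edgeR called 1.51% with RLE, 1.52% with upper quartiles and 0.698% without a count filter. At such shares, 0 of 9 says little about the members. No paired analysis was possible because the numbers in the labels are animal numbers that no 2 groups share.

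The number of correlated pairs depended more on the processing. It was 16 (11 positive) when group means were not removed, against 10, and 5 (3 positive) without cows 912 and 103, and it ranged from 6 (without GLYLC cow 912) to 13 (without GLYHC cow 37) when 1 cow was left out. RLE normalization gave 10 and Spearman's rho 8. The pathway list had 2 called genes in HC versus LC with DESeq2 on all cows and 0 to 2 with 1 cow left out. DESeq2 on only the compared groups called SULT2A1 in GLYHC versus GLYLC, where it called 0.57% of all genes. The study, from the same cows, also lists SULT2A1 among its concentrate-responsive genes.

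Several log2 fold changes changed sign, and not all of them were near 0. That of CYP7A1 in GLYHC versus GLYLC was -0.22 with all cows. Upper-quartile normalization turned CYP7B1 in GLYLC versus CONLC to -0.0018. Without cows 912 and 103 the values were -0.072 for CYP8B1 in GLYHC versus GLYLC, -0.0075 for CYP7B1 and 0.11 for NR0B2 in GLYLC versus CONLC, -0.026 for CYP8B1 in the interaction, -0.035 for SLC27A5 and -0.058 for CYP8B1 in HC versus LC, and -0.011 for NR1H4 in GLY versus CON. Of the 63 member results, 18 changed sign when 1 cow was left out. In CONHC versus CONLC the range was -0.0055 to 0.20 for ABCB11, -0.080 to 0.099 for CYP8B1 and -0.096 to 0.026 for SLC10A1. In GLYHC versus GLYLC it was -0.41 to 0.013 for CYP7A1, -0.054 to 0.11 for CYP7B1 and -0.084 to 0.13 for CYP8B1. In GLYHC versus CONHC it was -0.13 to 0.063 for ABCB11, and in GLYLC versus CONLC -0.0073 to 0.15 for CYP27A1, -0.071 to 0.093 for CYP7B1 and -0.19 to 0.090 for NR0B2. For the interaction it was -0.057 to 0.36 for CYP7A1 and -0.075 to 0.14 for CYP8B1. In HC versus LC it was -0.044 to 0.076 for CYP8B1 and -0.033 to 0.063 for SLC27A5, and in GLY versus CON -0.024 to 0.051 for CYP27A1, -0.0050 to 0.099 for NR1H4, -0.10 to 0.0057 for SLC10A1 and -0.076 to 0.016 for SLC27A5. The causes were not tested. Counting error weighs most on SLC51A, which had 1 to 103 reads per cow.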
